A study of Macaca mulatta with 2 samples.

Results

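The genes described here make, sense and clear prostaglandins, and were measured in primary Sertoli cells of the rhesus macaque (Macaca mulatta). They are the cyclooxygenases PTGS1 and PTGS2, the terminal synthases PTGDS, PTGES, PTGES2 and PTGIS, the receptors PTGER2, PTGER4 and PTGFR, and the clearance enzyme HPGD. They were taken by symbol from both scanner files with control spots left out, which gave 10 of the 18841 gene symbols on the array, on 16 probes and 25 spots per array. All 10 symbols also stand in the macaque gene table used here. The set was chosen by gene family and by the log2 ratios of pubertal over infant cells on these same 2 arrays. The ratios of its members are therefore a description of these cultures and carry no test.

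Prostaglandins are short-lived lipid messengers made from arachidonic acid, which phospholipases free from membranes. The cyclooxygenases turn it into an unstable intermediate, PTGS1 as the form present in many resting cells and PTGS2 as the form induced by cytokines, growth factors and cAMP. Terminal synthases then make prostaglandin D, E or I from that intermediate, G-protein-coupled receptors on nearby cells sense them, and HPGD starts their breakdown. In the testis PTGDS is known from Sertoli cells, Leydig cells and other somatic cells, and in the fetal gonad prostaglandin D belongs to the signals that keep up SOX9, the factor that sets Sertoli cell fate.

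Infant cells came from testes of males younger than 3 months. Pubertal cells came from males of 18 to 22 months, which were juveniles in which pulses of gonadotropin-releasing hormone (GnRH) through a catheter had brought on puberty; each pulse lasted 2 min at 0.15 µg/min, 3 h apart, and the course ran for 4 to 5 weeks. Puberty was thus induced and not spontaneous. Every culture, of either age, had been given testosterone (100 nM) and follicle-stimulating hormone (5 ng/ml) for 24 h, and no culture without them is analysed here. On array 1 the RNA of pubertal culture 1 carried Cy5 and that of infant culture 1 Cy3. On array 2 the RNA of pubertal culture 2 carried Cy3 and that of infant culture 2 Cy5. The labels call the pairs biological replicates and do not say how many animals made up a culture.

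Both arrays lay on 1 slide. Between 60.9% and 74.8% of the spots were well above background in a channel. Over the 19611 genes with a probe past the background filter, the ratios of array 1 and array 2 correlated at -0.07 (Pearson) and -0.10 (Spearman), across genes, which are not independent replicates. On both arrays 45.4% of genes had 1 sign. limma's test over these genes called 0 at a Benjamini-Hochberg adjusted p under 0.05 (0.0%) and 792 at an unadjusted p under 0.05 (4.04%). The lowest adjusted p was 0.192, for CST9L. Of 17 Sertoli cell markers 16 had a probe past the filter, and SHBG did not. Markers of other testicular cells were measured too: 14 of 14 for the interstitial stroma, 13 of 13 for germ cells and 9 of 10 for Leydig cells, where the luteinizing hormone receptor gene LHCGR was not well above background in any channel.

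Of the 10 prostaglandin genes 8 had a probe past the filter. PTGDS was 3.17-fold lower in pubertal than in infant cells. That was the lowest mean ratio of the 8 after loess with an offset of 50, but not with an offset of 0, the scanner's signals, median centring, no normalization or the authors' deposited table, each of which put PTGS2 lower. PTGS2 and PTGER4 were also lower in both pubertal cultures than in both infant cultures. PTGIS was lower within each pair, by little. PTGS1, PTGES2, PTGER2 and HPGD pointed opposite ways on the 2 arrays (4 of 8, where 54.6% of all genes did). PTGES had no probe above background in any channel, and PTGFR had 1 probe above it in 1 channel of 4. By count, 4 of the 8 measured members were lower in pubertal cells on both arrays, where 21.9% of all genes were, and 0 were higher, where 23.5% of all genes were. At least 2-fold lower on both arrays was 1 member, PTGDS, against 0.352% of all genes. With the scanner's signals 3 members were (PTGDS, PTGS2 and PTGER4), and with median centring 0. Of all 19611 genes 219 were so with the scanner's signals and 23 with median centring. Both pubertal levels lay below both infant levels for 3 members, against 14.1% of all genes, and above them for 0, against 15.7%. Since ratios of this contrast were in view when the set was made, nothing is read from these counts.

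**Figure D1:**
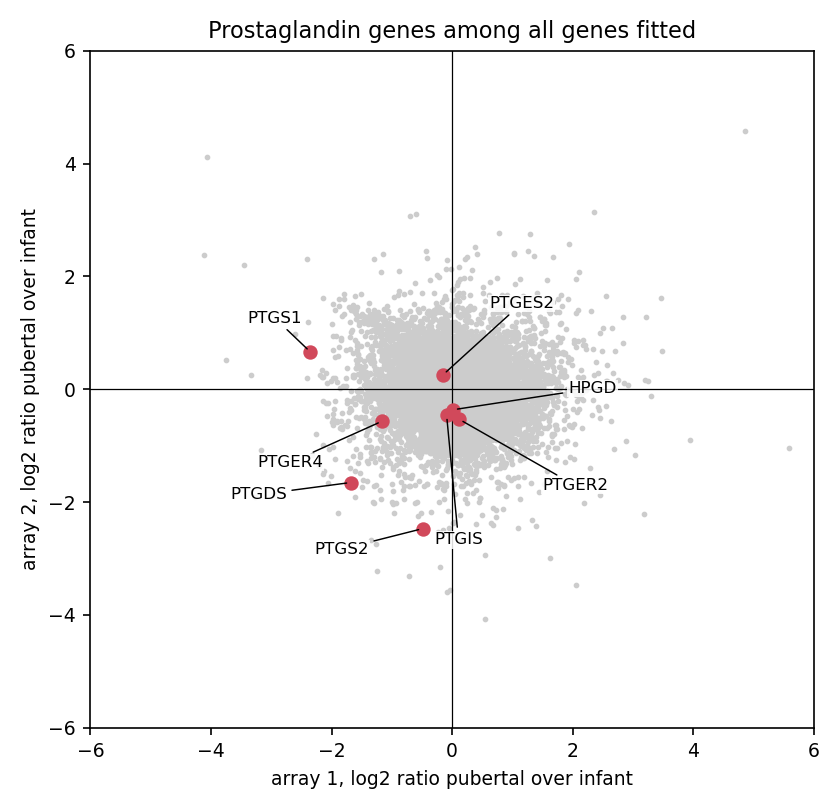
Log2 ratio of pubertal over infant on array 1 (horizontal axis) against array 2 (vertical axis). Grey points are the 19611 genes fitted and red points the 8 prostaglandin genes with a probe past the background filter. PTGDS lies near the diagonal in the lower left at -1.68 and -1.65, PTGS2 lies low on array 2 (-2.47) and PTGS1 far left on array 1 (-2.35).

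The probes are human 60-mers hybridised with macaque RNA, and their places are on the human build hg17 (start to end, with strand). Stretches of 30 bases are shown for the probes of PTGDS, PTGS1, PTGS2 and PTGER4, because the ratios described next rest on them and because the probe pairs of 3 of these genes gave unequal signals. Capitals mark AATAAA, the canonical polyadenylation hexamer, or ATTTA, the core of AU-rich elements known from short-lived messages; a stretch without capitals holds neither and is the start of its probe.
PTGDS A_23_P146554, bases 29 to 58: ttcatcctgcacAATAAActccggaagcaa
PTGS1 A_23_P216966, bases 1 to 30: tcatttggtctgccagaatactgggttctt
PTGS1 A_24_P64167, bases 31 to 60: agagtgaagaatcttaatgcttgtaATTTA
PTGS2 A_24_P250922, bases 1 to 30: tgagatATTTAaggttgaatgtttgtcctt
PTGS2 A_24_P77008, bases 1 to 30: gtcacaagatggcaaaatgctgaaagtttt
PTGER4 A_23_P148047, bases 1 to 30: cccaaacgtggttacattagccattcatgt
PTGER4 A_23_P435394, bases 31 to 60: caatagacacatacatgtcacATTTAgctg
On the strand as printed AATAAA occurred in 3 of the 16 member probes (PTGDS, and 1 each of PTGIS and PTGFR) and in 4.16% of all 41000 probes. ATTTA occurred in 5 of the 16 (PTGES, PTGER2, and 1 each of PTGS1, PTGS2 and PTGER4) and in 7.98% of all. With the other strand counted as well the shares of all probes were 7.6% and 14.9%, and the member counts stayed at 3 and 5. These motifs are letters in a probe and not sites shown to act. The PTGDS probe lies at chr9:137151967-137152026 on the plus strand and has the highest share of G and C among the member probes, 58.3%, against a lowest share of 26.7% for 1 PTGIS probe. The probes of PTGS1 lie at chr9:122234606-122234665 and chr9:122237090-122237149 (plus strand), with 2424 bases between them. The probes of PTGS2 lie at chr1:183373126-183373185 and chr1:183374765-183374823 (minus strand), with 1579 bases between them, and those of PTGER4 at chr5:40729320-40729379 and chr5:40728260-40728319 (plus strand), with 1000 bases between them. No annotation of this build was used here, so exon and untranslated region are not given.

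PTGS2, the inducible cyclooxygenase, was lower in pubertal cells on both arrays, far more so on array 2. Its main probe (A_24_P250922) was printed 10 times on each array. On array 1 the mean intensity of these spots was 143 for pubertal RNA in Cy5 and 104 for infant RNA in Cy3. On array 2 it was 79.5 for pubertal RNA in Cy3 and 796 for infant RNA in Cy5. Infant culture 2 stood apart from the other 3 RNAs in this readout. After normalization the log2 ratio of pubertal over infant over the 10 spots was -0.49 ± 0.07 on array 1 and -2.47 ± 0.18 on array 2 (SD over spots, which are technical repeats). The spots ran from -0.61 to -0.37 on array 1 and from -2.73 to -2.17 on array 2, so the 2 arrays did not overlap and no spot was above 0. Between the 2 pairs the mean was -1.48 ± 1.40 (SD, n = 2 array pairs), with a moderated SE of 0.51. This spread between pairs is many times that between spots. On array 2 PTGS2 held rank 15 from the lowest of 19611 genes, and on array 1 rank 2351.

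**Figure D2:**
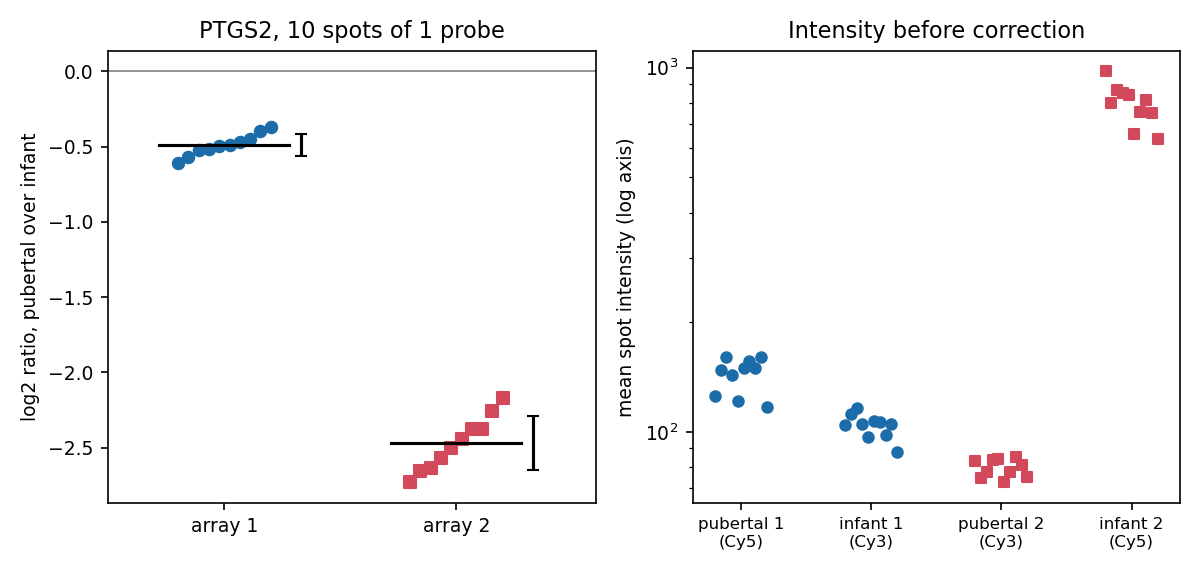
PTGS2 probe A_24_P250922, 10 spots per array. Left: log2 ratio of pubertal over infant per spot, with the mean (line) and SD over spots (bar). Right: mean spot intensity in each RNA before correction, on a log axis. The array 1 spots lie between -0.61 and -0.37 and the array 2 spots between -2.73 and -2.17, and infant RNA 2 is the bright channel.

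The level of an RNA, given on a log2 scale after normalization within and between arrays, put PTGS2 at 6.70 and 6.78 in pubertal cultures 1 and 2, and at 7.19 and 9.25 in infant cultures 1 and 2. Both pubertal levels lay below both infant levels and the infant cultures were themselves far apart. Set against each other in the same dye, pubertal culture 1 was 2.55 log2 units below infant culture 2 in Cy5 (-2.55), and pubertal culture 2 was 0.41 below infant culture 1 in Cy3 (-0.41). These are the same 4 values in another pairing and no further evidence. The second PTGS2 probe (A_24_P77008), which did not pass the filter, was at -0.02 and -1.01 on arrays 1 and 2. It was well above background in pubertal culture 1 and infant culture 2 and not in the other 2 RNAs. Those 2 were the RNAs in Cy5, where more spots were well above background (74.8% and 71.5%, against 60.9% and 62.6% in Cy3). Dye and culture cannot be told apart in that pattern. This probe also had its larger difference on array 2. The main probe's mean was -2.21 at a normexp offset of 0 and -2.65 with the scanner's signals, which have their own background correction and dye normalization. In the authors' deposited table PTGS2 was at -1.15 on array 1 and -4.08 on array 2. From the lowest these were ranks 1358 and 1 of the 4848 rows of that table. It holds only part of the array and 4 of the 10 members, so its ranks do not compare with those over 19611 genes.

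PTGS1, the cyclooxygenase of resting cells, went opposite ways on the 2 arrays. Its main probe (A_23_P216966) had an intensity of 158 for pubertal and 342 for infant RNA on array 1, and of 162 and 156 on array 2. The log2 ratio was -2.35 on array 1, rank 14 from the lowest of 19611 genes, and 0.66 on array 2. The mean was -0.84 ± 2.13 (SD, n = 2 array pairs), so the pairs differed by more than the mean ratio itself. Infant culture 1 had the highest level, at 9.07, followed by pubertal culture 2 at 7.70, infant culture 2 at 7.03 and pubertal culture 1 at 6.72. The age groups overlapped, and the infant culture with high PTGS1 was not the one with high PTGS2. Taken as Cy5 over Cy3, PTGS1 was low on both arrays, as were 23.2% of all genes; dye and culture cannot be told apart in that direction. In the authors' deposited table PTGS1 was at -3.53 and 1.34. Without normalization within the array, a setting added after seeing the data, the mean was -0.50. The second PTGS1 probe (A_24_P64167) was not well above background in any of the 4 RNAs, with intensities of 54.1 to 60.4 over backgrounds of 47 to 50, and gives no ratio to set beside the first.

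**Figure D3:**
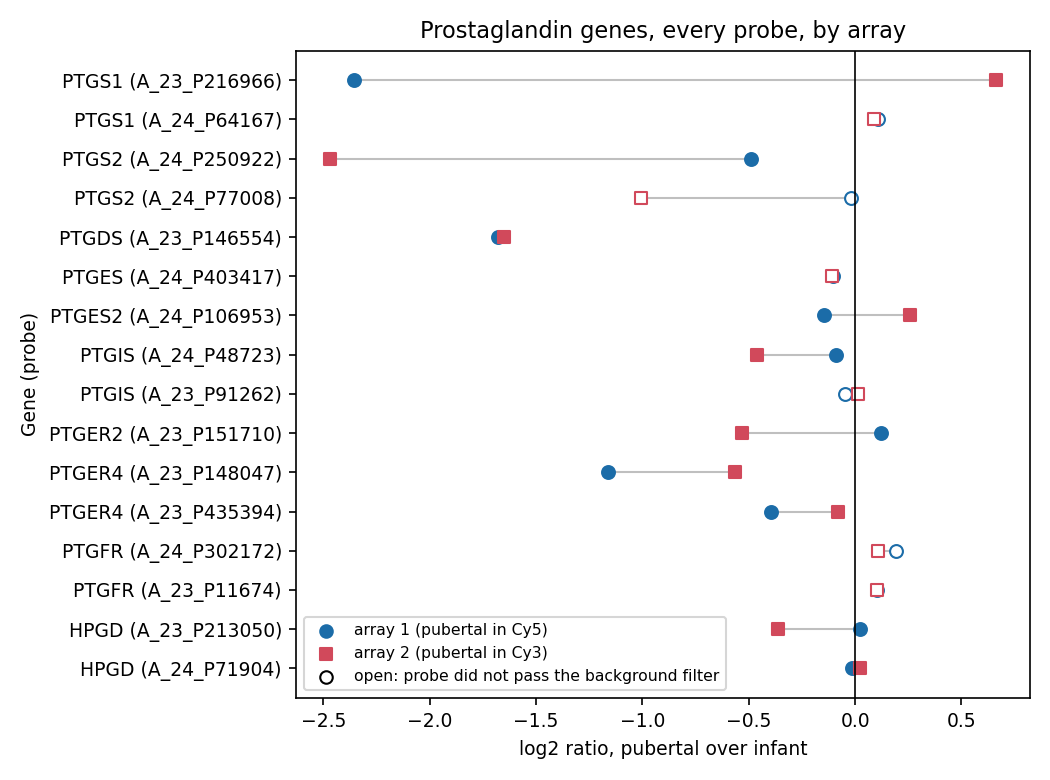
Log2 ratio of pubertal over infant for each of the 16 probes of the 10 genes. Blue circles are array 1 and red squares array 2, and open symbols are probes that did not pass the background filter. PTGDS is the gene whose 2 arrays lie together far from 0 (-1.68 and -1.65), while those of PTGS1 lie on opposite sides of 0.

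PTGDS, the lipocalin-type prostaglandin D synthase, was lower in both pubertal cultures by nearly the same size. The spot intensities were 4517 for pubertal RNA in Cy5 and 3567 for infant RNA in Cy3 on array 1, and 1786 for pubertal RNA in Cy3 and 12570 for infant RNA in Cy5 on array 2, over backgrounds of 42.5 to 48.0. On array 1 the pubertal spot was the brighter of the pair before normalization, as Cy5 was for most probes of like brightness. The background-corrected ratio of PTGDS was 0.34 on array 1, where the 500 kept probes of most similar intensity had a median of 2.05, and -2.81 on array 2, where they had a median of -1.17. PTGDS lay below the probes of like brightness on both arrays. After loess normalization its log2 ratio was -1.68 in the first pair of cultures and -1.65 in the second, which averages to -1.67 ± 0.02 (SD, n = 2 array pairs; moderated SE 0.24). It held rank 92 from the lowest on array 1, rank 102 on array 2 and rank 21 by the mean of both. The agreement in size rests on that normalization: with median centring, which treats all brightness alike, the ratios were -0.60 and -2.35.

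The PTGDS level was 11.14 and 11.37 in the pubertal cultures and 12.82 and 13.03 in the infant cultures. The groups did not overlap, and the gap between them was larger than the distance between the cultures of either age. In the same dye the differences were -1.89 in Cy5 and -1.44 in Cy3. The signal was well above background and not saturated in all 4 RNAs, and an offset of 0 left the mean at -1.71, so the offset mattered little for this bright probe. In the authors' deposited table PTGDS was at -1.84 and -1.59. The genes nearest to PTGDS in their pair of ratios, by Euclidean distance over the 2 arrays, were AKR1C1, an aldo-keto reductase, at -1.61 and -1.46 (distance 0.207), TMTC1 at -1.47 and -1.61 (0.213), and STC2, the secreted glycoprotein stanniocalcin 2, at -1.61 and -1.90 (0.263). A pair of ratios is a short pattern, and these genes are named for likeness alone.

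Markers of other cells were set beside these ratios. None of them passed limma's test over all genes, and their counts stand against 21.9% of all genes lower and 23.5% higher on both arrays. Of the 14 stromal markers 10 had pubertal below infant signal in both pairs and 1 had it above, and their summed normalized level was 37453 and 54097 in the pubertal cultures against 86480 and 78682 in the infant cultures. Of the 9 measured Leydig cell markers 2 were lower, 1 was higher and 6 had opposite signs. HSD3B1, HSD3B2, CYP11A1 and STAR each had a saturated channel and carried most of the Leydig sum, which was 135885 and 161001 in pubertal and 131773 and 89123 in infant cultures. Without them, a choice made after seeing the data, the other 5 Leydig markers summed to 9248 and 3739 in pubertal and 22272 and 8985 in infant cultures. The 2 lower ones, named with their values already seen, were CYP17A1, the enzyme that opens the way to androgens, at -2.12 and -1.45, and DLK1, known from immature Leydig cells, at -1.32 and -1.99. Both are among the 5 of that sum. The 1 higher was CYP11A1, at 0.67 and 0.27. Those of opposite signs were HSD3B1 (-0.0028 and 1.76), HSD3B2 (-0.44 and 2.46), INSL3 (1.37 and -0.20), HSD17B3 (1.86 and -0.55), NR5A1 (-0.35 and 0.17) and STAR (1.14 and -1.20).

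Of the 16 Sertoli cell markers 3 were lower, 7 higher and 6 of opposite signs. Their sums were 149799 and 190227 in pubertal and 171422 and 117360 in infant cultures, and 23665 and 14994 against 12397 and 8156 without INHBB, INHA, TF and KRT18, which had saturated channels. The 13 germ cell markers summed to 3597 and 3109 in pubertal and 1811 and 1822 in infant cultures, with 0 lower and 12 higher. The 9 peritubular markers had 2 lower and 5 higher; the 8 of them without saturation summed to 27095 and 47208 against 19550 and 56562, and with TPM2, which had it, to 58038 and 100560 against 35643 and 92896. The leukocyte markers (8 of 11 measured) summed to 1924 and 1451 against 1114 and 1462, with 1 lower, 3 higher and 4 of opposite signs, and AIF1, LYZ and HLA-DRA were above background in no infant RNA. The endothelial markers (5 of 8) summed to 1064 and 981 against 815 and 850, with 1 lower and 3 higher. Those of rete testis and epididymis (5 of 7 on the array) summed to 1102 and 863 against 791 and 1004, all 5 with opposite signs, and CRISP1 and DEFB129 were above background in no RNA. Of the 7 markers on the array for mast cells, known for prostaglandin D made by another synthase, 2 were measured, HDC and KIT. They summed to 187 and 177 against 163 and 166, both higher by little (HDC 0.21 and 0.09, KIT 0.19 and 0.09). Each was well above background in only 1 infant RNA, and KIT is also among the 13 germ cell markers. TPSB2, MS4A2 and CMA1 were not well above background in any channel. The part of these markers in the PTGDS, PTGS2 and PTGER4 ratios was not tested. In such bulk RNA fewer cells of a type and less RNA per cell cannot be told apart.

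**Figure D4:**
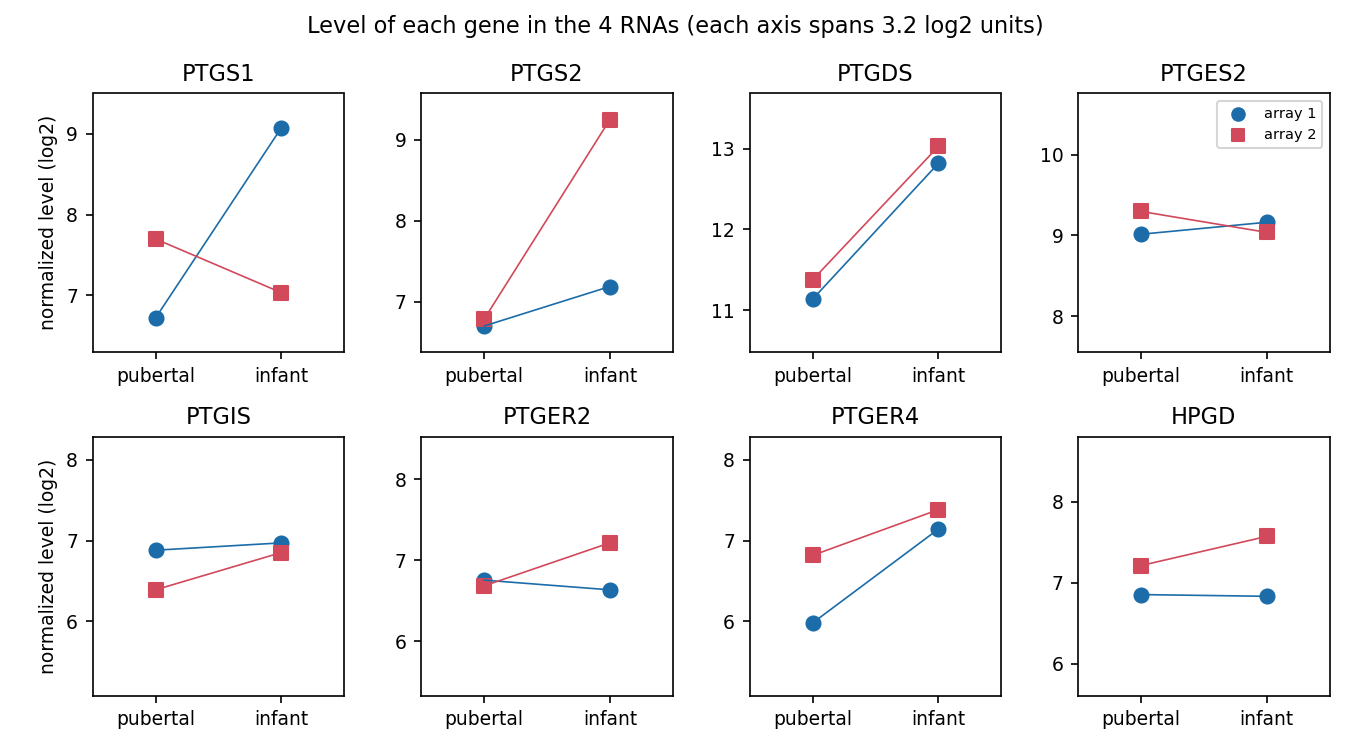
Normalized level (log2) of the 8 measured genes in the pubertal and infant RNA of array 1 (blue circles) and array 2 (red squares), a line joining the RNAs of 1 array. For PTGDS, PTGS2 and PTGER4 both pubertal levels lie below both infant levels, and for the other 5 genes the ages overlap.

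The other terminal synthases differed little or were not measured. PTGES2, a membrane-associated prostaglandin E synthase, had ratios of -0.15 and 0.26 (mean 0.06 ± 0.29, SD, n = 2 array pairs). Its levels were 9.01 and 9.30 in pubertal and 9.16 and 9.04 in infant cultures, all within 0.282 log2 units, with every channel well above background. PTGES, the inducible microsomal prostaglandin E synthase, had intensities of 53.0 and 59.3 for pubertal and 57.9 and 60.7 for infant RNA over backgrounds of 46 to 50, and was not well above background in any RNA. That is no measure of absence, since the probe is human and the RNA macaque. PTGIS, the prostacyclin synthase, was at -0.09 and -0.46 on its kept probe (A_24_P48723), a mean of -0.28 ± 0.26, and pubertal culture 2 was not well above background. Its levels were 6.88 and 6.39 in pubertal and 6.97 and 6.85 in infant cultures, which overlap. At an offset of 0 the PTGIS mean was -0.63, with the scanner's signals -0.94, and without normalization within the array 0.01, so its direction is not settled. The second PTGIS probe (A_23_P91262), 15 bases away on the build, was at -0.05 and 0.02 and did not pass the filter. Its given place covers 22 bases of the build although the probe has 60, and the distance rests on that place.

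PTGER4, the prostaglandin E receptor EP4, which raises cAMP, was lower in pubertal cells on both arrays. Its main probe (A_23_P148047) had intensities of 71.0 for pubertal and 110 for infant RNA on array 1, and of 87.9 and 192 on array 2, over backgrounds of 46.0. These are dim spots, although all 4 were well above background. The log2 ratio was -1.16 in the first pair of cultures and -0.57 in the second, which averages to -0.86 ± 0.42 (SD, n = 2 array pairs; moderated SE 0.27) or 1.82-fold lower. Levels were 5.98 and 6.82 in pubertal and 7.14 and 7.38 in infant cultures, which do not overlap, and the same-dye differences were -1.40 in Cy5 and -0.32 in Cy3. The size depends on how the dim signal is treated: the mean was -1.73 at an offset of 0 and -2.51 with the scanner's signals, and the authors' deposited table had -4.09 and -1.02. The second PTGER4 probe (A_23_P435394) had ratios of -0.40 and -0.08. It was well above background in both infant RNAs and in no pubertal RNA. Infant cells were 1.18-fold higher by the mean of both arrays, and 1.06-fold on array 2 alone. With median centring the probe's ratios were -0.91 and 0.17, so no least difference is given. The 1.18-fold sets the infant mean level of 6.38 against 6.14 for pubertal cells. The pubertal value takes, per array, the higher of the dimmest level well above background and the probe's own.

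PTGER2, the receptor EP2, which also raises cAMP, had ratios of 0.12 and -0.53 (mean -0.21 ± 0.46, SD, n = 2 array pairs). Its levels were 6.75 and 6.68 in pubertal cultures and 6.63 and 7.22 in infant cultures. Only infant culture 2, in Cy5, stood above the other RNAs, and the ages overlapped. PTGFR, the prostaglandin F receptor, had its 2 probes at or near background. One (A_23_P11674) was not well above it in any RNA, and the other (A_24_P302172) was so in pubertal culture 1 alone, at an intensity of 81.4 against 57.2 to 63.6 in the other 3 RNAs. Their ratios, 0.10 and 0.10 for the first and 0.19 and 0.11 for the other, are ratios of near-background signals.

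HPGD, the dehydrogenase that inactivates prostaglandins, did not differ in a shared direction. Its brighter probe (A_23_P213050) covers 13131 bases of hg17 (chr4:175791475-175804605, minus strand) although the probe has 60 bases. It had intensities of 152 and 119 for pubertal and 83.2 and 230 for infant RNA, and ratios of 0.02 and -0.36 (mean -0.17 ± 0.27, SD, n = 2 array pairs). The levels were 6.85 and 7.21 in pubertal and 6.83 and 7.57 in infant cultures. Both cultures of array 2 were higher than both of array 1, so the cultures differed by array more than by age. The second probe (A_24_P71904), 4999 bases from the first, had ratios of -0.01 and 0.02 and was not well above background in infant culture 1. For PTGES2, PTGER2 and HPGD the difference between ages was within the spread between pairs, which does not show that the ages are alike. Taken as Cy5 over Cy3, PTGER2 and HPGD were high on both arrays, as were 31.5% of all genes. PTGES2 was low in Cy5 on both, as were 23.2% of all genes. Dye and culture cannot be told apart in these directions.

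Around these members, 58 other genes of the prostanoid pathway and its surroundings were measured, and 0 of them passed limma's test over all genes. An unadjusted p under 0.05 in that fit was found for 8 of the 58, where 4.04% of all genes had one. The lists were chosen with earlier results of these data known, so nothing is read from this count. Both pairs had the pubertal signal below the infant signal for 20 of the 58 (34.5%, against 21.9% of all genes) and above it for 8 (13.8%, against 23.5%). The median ratio of the 58 was -0.07 in the first pair and -0.14 in the second, where all genes had 0.05 and -0.03. With median centring the 20 became 11, and the count over all 19611 genes fell from 4294 to 1913.

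Among the phospholipases that free arachidonic acid, the array measured 13, of which 5 lay below 0 in both pairs and 2 above. PLA2G4C, a calcium-independent member of the cytosolic group, was at -0.55 and -0.94, with a mean of -0.63 on a further probe. PLA2G4A, the main cytosolic enzyme that supplies cyclooxygenases, was at -0.36 and -0.38, and PLA2G6 at -0.06 and -0.54. PLA2G1B, the pancreatic secreted enzyme, was at 0.79 and 0.15.

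Of the other synthases and reductases 6 were measured. AKR1C3 and AKR1B1, aldo-keto reductases able to make prostaglandin F, were the ones lower on both arrays, at -1.75 and -1.28 and at -1.19 and -1.79, with an adjusted p of 0.963 for each in limma's fit over all genes. Both act on other substrates too, steroids for AKR1C3 and sugars for AKR1B1, and AKR1B1 had a saturated channel. Whether the AKR1C3 probe also binds close relatives was not looked up. PTGES3, the cytosolic prostaglandin E synthase and HSP90 co-chaperone, was at -0.51 and 0.45, and CBR1, which reduces prostaglandin E, at 0.65 and -0.37; they were chosen after their values were seen, as were CBR3 at 0.19 and -0.67 and C1orf93 (the older name of PRXL2B) at 0.42 and -0.72. PGDS, the haematopoietic prostaglandin D synthase, was well above background in 1 of 4 RNAs, and the thromboxane synthase TBXAS1 did not pass the filter either.

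Among the other receptors PTGFRN, which restrains the prostaglandin F receptor, was at -0.86 and -0.15, and PTGER3, the receptor EP3, which lowers cAMP, at 0.63 and 0.21. PTGIR and TBXA2R had opposite signs on the 2 arrays. PTGER1, and the prostaglandin D receptors PTGDR and GPR44 (now PTGDR2), did not pass the background filter. For transport and clearance 2 of 7 genes were lower and 1 higher. AKR1C1, which can reduce prostaglandins as well as progesterone, was at -1.61 and -1.46, with means of -1.18 and -1.34 on further probes that may share its relatives. CBR4 was at -0.43 and -1.09. ABCC4, an exporter of prostaglandin E and cAMP, was at 0.40 and 0.95, with 0.42 on a further probe. The importer SLCO2A1 was at -0.08 and 0.65 and is named here with its values already seen.

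The lipoxygenase branch, which draws on the same arachidonic acid to make leukotrienes, had 5 of 11 genes lower and 2 higher on both arrays. MGST2, a leukotriene C synthase, was at 0.39 and 0.71. ALOX5 was at -0.06 and -0.73, its helper ALOX5AP at -0.18 and -0.42, and ALOX12 at -0.22 and -0.24. Further probes of ALOX5AP and ALOX12 averaged -0.11 and -0.39. Pubertal ALOX5 was well above background on 1 of 2 arrays. Of 17 genes known to drive or follow prostaglandin signalling 5 were lower and 2 higher. ANXA1, a steroid-induced protein that restrains phospholipase A2, was at -0.66 and -0.92, and S100A10, the partner of annexin A2, at 0.78 and 0.88. The immediate early gene EGR1 was at -0.45 and -0.93, and the stress-induced factor ATF3 at -0.11 and -1.65 (mean of a further probe -0.58). Other cAMP-responsive genes of the list did not share that direction: NR4A1 was at 0.89 and -1.88, NR4A2 at 0.44 and -0.55, and NR4A3 at 1.46 and -0.39. CREB1, the factor that cAMP signalling activates, was at 0.15 and 0.47, and these 4 are named with their values already seen. SOX9 was at -0.27 and 0.62, with opposite signs, and is likewise named with its values already seen.

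**Figure D5:**
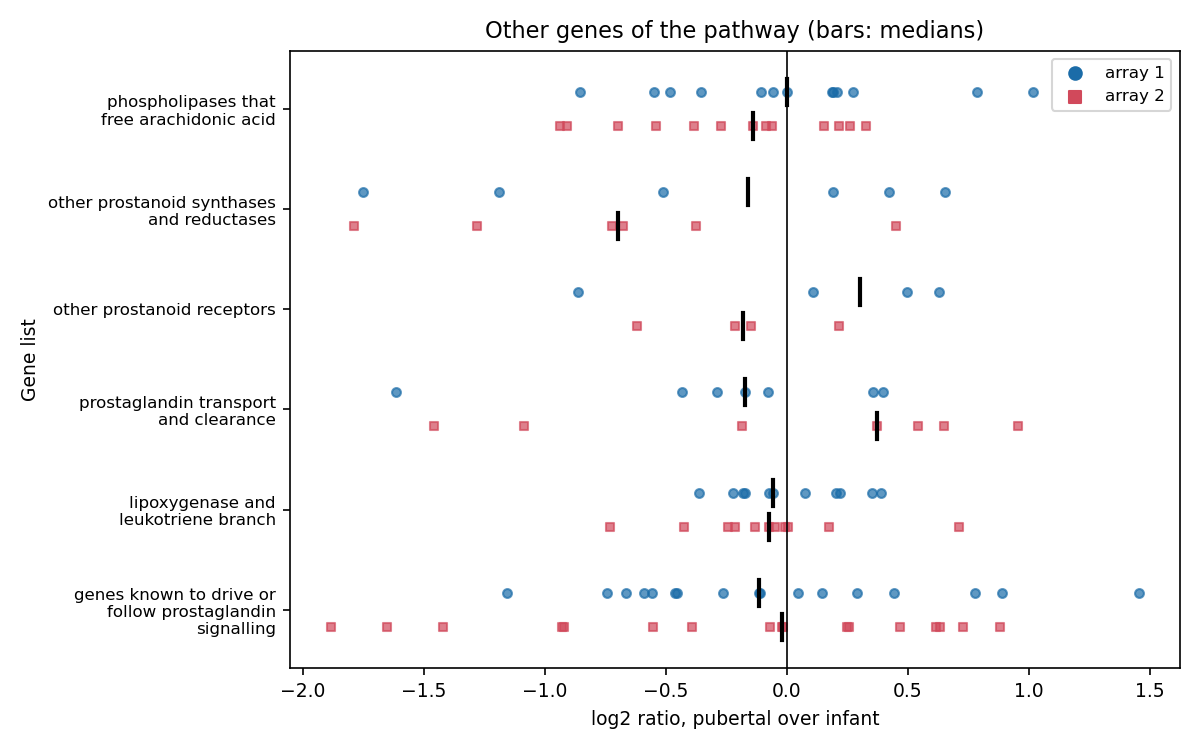
Log2 ratio of pubertal over infant of the measured genes of the 6 lists, array 1 as blue circles and array 2 as red squares, with the median of each list as a black bar. Medians stay between -0.70 and 0.37, and the lowest points of the synthase and reductase list are AKR1C3 and AKR1B1.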

How the data were processed

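RNA of 2 pubertal and 2 infant Sertoli cell cultures was hybridised in pairs to 2 dye-swapped arrays of 60-base human probes (design 014850, coordinates on hg17, per the file headers), and Agilent Feature Extraction 9.5.1.1 read the scans (per the submitters' processing notes). In the deposited scanner files stand the intensities of each spot and its local background, the software's processed intensities, their log10 ratio (Cy5 to Cy3), and flags. The authors' deposited table holds log2 ratios whose normalization is not given in the sources used here. Its means lay close to those with the scanner's signals for PTGS1 (-1.10 and -1.09), PTGS2 (-2.61 and -2.65), PTGDS (-1.72 and -1.72) and PTGER4 (-2.56 and -2.51). The 2 settings are therefore no separate evidence for these genes.

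Mean intensities were corrected by normexp (offset 50) and normalized by loess within each array in limma 3.58.1 (R 4.3.3), without weight for control spots. Ratios were turned to pubertal over infant. Spots of a probe were averaged (43376 spots, 41000 probes), and outlier spots were left out of the averaged ratios and levels. A probe was kept where at least 1 in 2 of its spots was well above background in both pubertal RNAs or in both infant RNAs (25770 probes). The probe with the highest mean intensity stood for a gene, which left 19611 genes, unnamed probes counted singly. limma (lmFit, eBayes, two-sided, Benjamini-Hochberg adjusted) was fitted on both turned ratios, which left 1 residual degree of freedom (prior: 3.82). It was also run on simulated data with changes larger than the mean ratio of any member, which does not show how it finds changes of the members' size. Levels of single RNAs were taken after loess and Aquantile normalization between arrays. The number of arrays limits the precision.

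The members and the lists were chosen with earlier results of these data known. Named were every member, from each list the members past the test or otherwise up to 4 with the smallest p among those of 1 sign on both arrays, and the 3 genes nearest to PTGDS. Alternatives were an offset of 0, the scanner's signals, median centring, other background filters, single probes, no saturated probes, an intensity trend, each array alone and the authors' table. No macaque genome or array annotation was used here, so mismatched probes and exons were not looked up.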

Additional observations from a re-analysis of the deposited data

How the results depend on the processing

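Over the alternatives with both arrays, the mean ratios of PTGS2 (-2.65 to -1.40), PTGDS (-1.72 to -1.23), PTGER4 (-2.56 to -0.80), PTGS1 (-1.10 to -0.50), PTGER2 (-0.44 to -0.06) and HPGD (-0.29 to -0.05) kept their sign, as did that of PTGES2 (0.05 to 0.39). PTGIS did not: it was at 0.0141 without normalization within the array, a setting chosen after seeing the data. With 1 array alone PTGS1 ranged from -2.35 to 0.66, PTGES2 from -0.15 to 0.26, PTGER2 from -0.53 to 0.12 and HPGD from -0.36 to 0.0215. The number of members lower on both arrays stayed between 3 and 5 with both arrays and was 6 on either alone, where only 1 ratio has to be below 0. CST9L was the 1 gene past limma's test with an offset of 0, median centring and an intensity trend. Genes lower on both arrays numbered 4294, and 1913 with median centring and 6737 without a background filter, where more genes are tested. Genes at least 2-fold apart on both arrays numbered 136 (69 lower, 67 higher), 296 with an offset of 0, 494 with the scanner's signals and 74 with median centring (23 lower, 51 higher), which left medians of 0.63 and -0.42 on arrays 1 and 2. With median centring the other pathway genes lower on both arrays were 11. On 1 array alone the lower genes numbered 8834 to 10470, those 2-fold apart 926 to 1417 and the lower pathway genes 32 to 38. These counts are higher by definition, since 1 ratio has to pass in place of 2. The cause of the other changes was not tested. The test is itself paired, since each ratio sets the pubertal and infant cultures of 1 array against each other; no replicate block can be added to it, because a dye or array term would leave no residual degree of freedom.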

Other observations

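The array also carries probes for LOC442421, a transcript that its design describes as similar to PTGER4. Its probes were well above background in all 4 RNAs, with ratios of -0.16 and -0.26 for the first and 0.53 and -0.42 for the other. Whether the PTGER4 probes bind this transcript was not tested.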
